A study of Homo sapiens with 6 samples.

Results

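Genes of cholesterol and fatty acid metabolism around the sterol regulatory element-binding proteins (SREBPs) were examined in HepG2, an established human liver cancer cell line. The list held 41 genes, of which 7 belong to mevalonate steps, 12 to squalene and sterol steps, 8 to fatty acid synthesis and desaturation, 5 to SREBP regulation, 5 to cholesterol uptake and trafficking, and 4 to the branch of the liver X receptors (LXRs) and cholesterol efflux. It was chosen by the roles of the genes in the pathway, by a proposal made with the NC and ORF-Flag values of the same libraries in view, so counts over the list are a description and not a test of it. All 41 had a row among the 20422 genes of the count table. RNA-Seq libraries came from 3 samples of control cells that received an empty vector (NC) and 3 samples of cells overexpressing APPLE, a microprotein encoded by the lncRNA ASH1L-AS1, with a Flag tag (ORF-Flag). The study's methods describe stable lines made with lentiviral vectors and puromycin, whereas the series description speaks of transfected plasmids, so the delivery is given here in both forms. Whether each sample of a group was grown on its own is not stated in the sources, and p-values then measure only the spread between these samples, which may be technical. The NC libraries held 20081203 (replicate 1), 24907524 (replicate 2) and 30088457 (replicate 3) counts, and the ORF-Flag libraries 26866148, 17494668 and 27015836 in the same order, which is kept for the values of each library below. The members together took 0.955%, 0.950% and 0.935% of the counts in the NC libraries and 0.977%, 0.985% and 0.972% in the ORF-Flag libraries.

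SREBPs are transcription factors made as precursors in the membrane of the endoplasmic reticulum. When sterols are low, the escort protein SCAP carries them to the Golgi, where they are cleaved, and the released part enters the nucleus and binds sterol regulatory elements, often beside sites for NF-Y and SP1. When sterols are plentiful, INSIG proteins hold SCAP back, and oxysterols activate the LXRs, which turn on genes of cholesterol efflux.

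The comparison asked how transcript levels of these genes differed between cells with and without APPLE overexpression. Levels are given as CPM, which are counts scaled by library size, here with TMM factors that correct for library composition. A gene was called when the quasi-likelihood test in edgeR gave it a p below 0.05 after Benjamini-Hochberg correction over all 12386 genes tested. Of the 41 members, 39 had enough counts for the test. HMGCS1, ABCA1, SC5D, MSMO1, HSD17B7 and FADS2 were called higher in ORF-Flag, which makes 6 of 39, where 2.47% of all genes tested were called higher. SCAP was called lower, which makes 1 of 39, where 1.98% of all genes tested were called lower. The differences were small, from a log2 fold change of -0.15 for SCAP to 0.25 for ABCA1, and in bulk RNA a change in the number of expressing cells and a change in RNA per cell cannot be told apart. The log2 fold change was above 0 for 31 members and below 0 for 8, where library sizes in place of TMM factors gave 28 and 11 and leaving out NC replicate 3 gave 26 and 13. The median was 0.048, beside -0.0012 over all genes tested, and became 0.030 without ORF-Flag replicate 2. For 13 members every ORF-Flag library was above every NC library, and for 3 every one was below, where the same held for 11.5% and 10.9% of all genes tested. The 6 members called higher became 3 without ORF-Flag replicate 2, 4 without ORF-Flag replicate 1 or 3, 5 without NC replicate 1 or 2, and 7 without NC replicate 3. Over all genes tested, the 306 called higher became 169, 177 and 131 without ORF-Flag replicate 2, 1 or 3, 275 and 166 without NC replicate 1 or 2, and 502 without NC replicate 3. The single member called lower became 2 without NC replicate 3 and 0 in each of the other 5 fits that left out 1 library, while the 245 genes called lower over all genes became 556 without NC replicate 3 and 68 to 184 in those 5. The shares of 2.47% and 1.98% above therefore hold for the fit of all libraries.

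**Figure D1:**
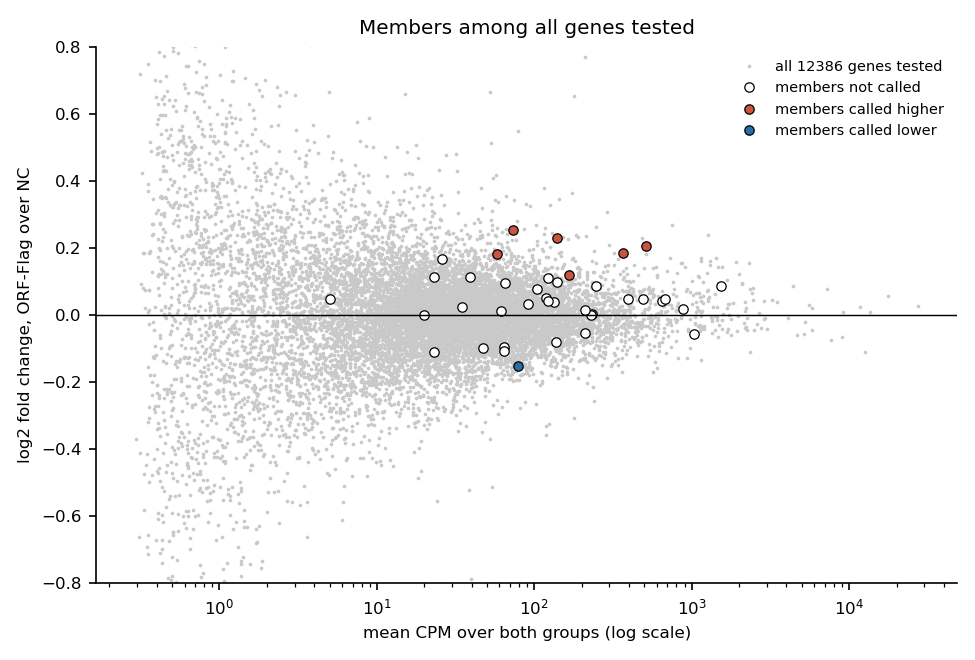
Log2 fold change of ORF-Flag over NC against mean CPM (log scale) for the 12386 genes tested (grey) and the 39 members tested (circles, filled where called). The 6 members called higher sit between 0.12 and 0.25, and SCAP, the 1 called lower, sits at -0.15; genes beyond 0.8 in either direction are outside the plotted range.

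The promoters of the 6 members with the smallest adjusted p in the fit of all libraries are shown, and they belong to 4 different roles. HMGCS1 makes the HMG-CoA that feeds the mevalonate pathway, and MSMO1, HSD17B7 and SC5D act on the sterol ring late in cholesterol synthesis. ABCA1 exports cholesterol from the cell, and SCAP is the escort of the SREBPs. Each sequence runs 5′ to 3′ on the strand of its gene, from 250 bases before to 50 bases after the start given by RefSeq on GRCh38.p14, and where RefSeq gives more than 1 start the most upstream is shown. Capitals mark matches to any of 4 motifs on either strand. The NF-Y motif was spelled CCAAT. The SP1 motif was spelled GGGCGG. The E-box, which SREBPs can also bind, was spelled CACGTG. The sterol regulatory element was spelled TCACNCCAC, where N is any base, and no printed window holds it.
HMGCS1 (ENSG00000112972), chr5:43313363-43313662, minus strand: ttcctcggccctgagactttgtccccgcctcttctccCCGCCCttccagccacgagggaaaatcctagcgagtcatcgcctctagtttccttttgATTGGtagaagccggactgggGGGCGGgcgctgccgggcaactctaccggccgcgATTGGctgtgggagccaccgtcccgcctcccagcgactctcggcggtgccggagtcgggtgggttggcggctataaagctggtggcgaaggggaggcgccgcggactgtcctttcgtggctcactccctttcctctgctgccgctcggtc
ABCA1 (ENSG00000165029), chr9:104928106-104928405, minus strand: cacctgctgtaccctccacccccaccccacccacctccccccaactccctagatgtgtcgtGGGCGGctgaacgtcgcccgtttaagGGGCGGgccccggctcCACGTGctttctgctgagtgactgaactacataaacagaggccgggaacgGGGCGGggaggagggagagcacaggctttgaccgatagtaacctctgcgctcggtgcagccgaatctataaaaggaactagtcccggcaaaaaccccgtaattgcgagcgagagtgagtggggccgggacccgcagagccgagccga
SC5D (ENSG00000109929), chr11:121292521-121292820, plus strand: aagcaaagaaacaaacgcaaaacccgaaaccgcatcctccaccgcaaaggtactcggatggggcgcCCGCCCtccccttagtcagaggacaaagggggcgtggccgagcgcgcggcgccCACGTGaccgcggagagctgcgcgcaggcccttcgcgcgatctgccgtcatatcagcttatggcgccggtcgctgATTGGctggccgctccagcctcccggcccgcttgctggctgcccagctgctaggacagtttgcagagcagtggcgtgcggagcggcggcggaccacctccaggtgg
MSMO1 (ENSG00000052802), chr4:165327419-165327718, plus strand: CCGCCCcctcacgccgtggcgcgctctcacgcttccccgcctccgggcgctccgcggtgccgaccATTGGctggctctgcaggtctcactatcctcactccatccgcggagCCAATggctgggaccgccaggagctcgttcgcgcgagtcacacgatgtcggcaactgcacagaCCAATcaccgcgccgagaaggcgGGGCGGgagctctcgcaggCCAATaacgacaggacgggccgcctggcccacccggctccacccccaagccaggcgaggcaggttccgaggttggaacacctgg
HSD17B7 (ENSG00000132196), chr1:162790452-162790751, plus strand: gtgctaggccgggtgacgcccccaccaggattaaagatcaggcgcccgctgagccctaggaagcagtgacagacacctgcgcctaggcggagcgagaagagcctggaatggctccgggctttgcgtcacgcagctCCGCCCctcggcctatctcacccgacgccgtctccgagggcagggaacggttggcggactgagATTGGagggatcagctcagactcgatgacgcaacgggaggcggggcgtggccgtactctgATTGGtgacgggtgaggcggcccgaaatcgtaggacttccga
SCAP (ENSG00000114650), chr3:47475892-47476191, minus strand: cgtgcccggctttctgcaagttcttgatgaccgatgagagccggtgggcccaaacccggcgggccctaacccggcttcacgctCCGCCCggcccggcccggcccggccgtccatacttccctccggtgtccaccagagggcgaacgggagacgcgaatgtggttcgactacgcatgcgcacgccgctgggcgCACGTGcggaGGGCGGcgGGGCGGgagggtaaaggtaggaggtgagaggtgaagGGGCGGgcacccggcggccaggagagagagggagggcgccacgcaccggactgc

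The HMGCS1 window held the NF-Y motif 2 times and the SP1 motif 2 times. The MSMO1 window held the NF-Y motif 4 times and the SP1 motif 2 times, and the HSD17B7 window held them 2 times and 1 time. In the SC5D window the NF-Y, SP1 and E-box motifs each occurred 1 time. The ABCA1 window held the SP1 motif 3 times and the SCAP window 4 times, each with 1 E-box and with no NF-Y motif. Of the 41 members, 36 matched the promoter table, with 51 windows; ABCG1, ACAT2, FASN, FDFT1 and SQLE did not. The NF-Y motif was found in 29 of the 51 windows (56.9%), beside 34.6% of all 35116 windows of the same length, which include those of non-coding genes. The SP1 motif was found in 43 (84.3%), beside 45.0%, and the E-box in 6 (11.8%), beside 7.26%. The sterol regulatory element as spelled was found in 1 (1.96%), that of SREBF2, beside 1.13%. These matches describe letters in a window and say nothing of binding.

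Per kilobase of exon, the scale on which levels of different genes can be compared, the most abundant member in NC was SCD, at 279 ± 1.19 CPM per kb (SD, n = 3). FDPS, the farnesyl diphosphate synthase, followed at 170.6 ± 2.75 and FDFT1 at 167.7 ± 4.38 CPM per kb (SD, n = 3 each), which do not differ beyond their spread. ACLY, which makes acetyl-CoA from citrate, came next at 127 ± 2.31 CPM per kb (SD, n = 3). MSMO1 at 118.0 ± 8.89, FASN at 113 ± 9.65 and ACAT2 at 112.7 ± 2.83 CPM per kb followed, with overlapping spreads (SD, n = 3 each), and that of MSMO1 also overlapped ACLY's. At the low end of the detected members were NR1H3 at 4.84 ± 0.261 and MYLIP at 1.62 ± 0.225 CPM per kb (SD, n = 3 each). SC5D, HSD17B7 and ABCA1, which were among the called members, were at 23.0 ± 1.23, 11.3 ± 0.223 and 5.90 ± 0.0694 CPM per kb in NC (SD, n = 3 each), beside HMGCS1 at 101 ± 1.88 CPM per kb (SD, n = 3).

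Among the 7 listed genes that act between acetyl-CoA and farnesyl diphosphate, 1 was called higher, 0 were called lower, and all 7 log2 fold changes were above 0, although PMVK turned below 0 under 6 of the 15 alternative settings and MVD under 1. HMGCS1, the HMG-CoA synthase, was at 479.9, 465 and 480.8 CPM in NC and at 539, 546 and 560.4 CPM in ORF-Flag. The groups did not overlap, and the distance between them exceeded the spread within either. Its level was 15.4% higher in ORF-Flag, at a log2 fold change of 0.21 (edgeR, adjusted p = 0.000256, standard error 0.032). An antisense gene overlaps 703 bases of its exons. The other 6 had log2 fold changes between 0.00086 for PMVK, phosphomevalonate kinase, and 0.095 for MVK, mevalonate kinase, and none was called. IDI1, the isomerase of isopentenyl diphosphate, had the smallest adjusted p of these at 0.204 in edgeR's test. Without NC replicate 3, IDI1 was called (log2 fold change 0.11, edgeR adjusted p = 0.0461) and MVD turned to -0.00070. Without NC replicate 1, IDI1 was at 0.051 (edgeR adjusted p = 0.485), beside 0.086 with all libraries. Of the 15 alternatives, MVK was called only where GC and length trends were removed (edgeR adjusted p = 0.0283). The level of ACAT2 is uncertain, since 2996 bases of its exons are overlapped by genes on the other strand and the strand setting of the counting is not given in the sources used here.

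**Figure D2:**
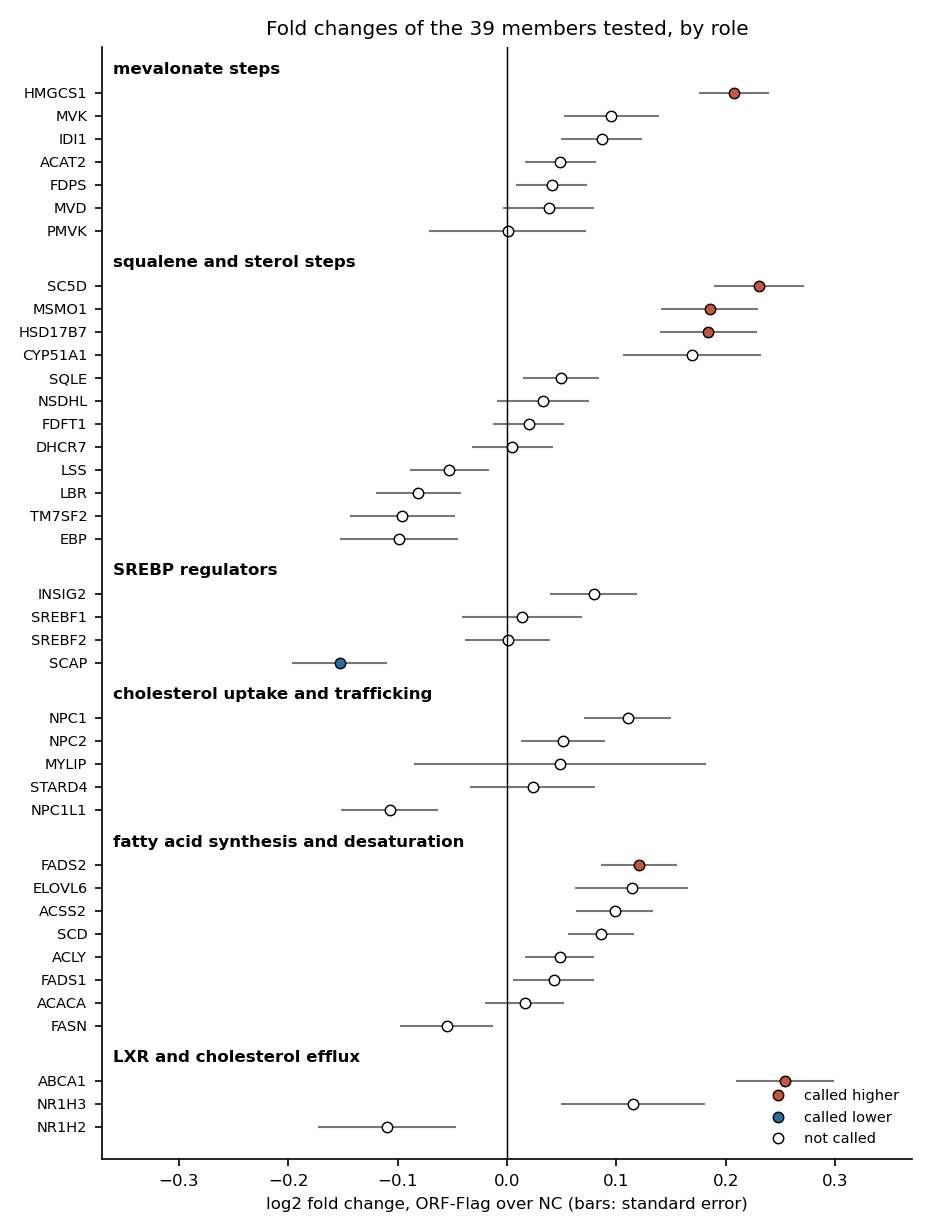
Log2 fold change of ORF-Flag over NC for the 39 members tested, grouped by role; points are estimates and bars are standard errors, filled where the adjusted p was below 0.05. SC5D and ABCA1 are the filled points farthest above 0, and SCAP is the only filled point below 0.

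Of the 12 listed genes of squalene and sterol steps, 3 were called higher and 0 lower. SC5D, the lathosterol desaturase, was at 121, 128 and 135 CPM in NC and at 148, 158 and 146 CPM in ORF-Flag. All 3 ORF-Flag libraries were above the NC libraries. It rose by 0.23 on the log2 scale (edgeR, adjusted p = 0.00143, standard error 0.041). MSMO1, a methylsterol oxidase, was at 312, 352 and 359 CPM in NC and at 374, 413 and 379.5 CPM in ORF-Flag. NC replicate 1 was low and ORF-Flag replicate 2 high within their groups, and the groups did not overlap. Its log2 fold change was 0.19 (edgeR, adjusted p = 0.0158, standard error 0.044), and the call was lost without ORF-Flag replicate 2 (0.14, edgeR adjusted p = 0.125) and with DESeq2 (adjusted p = 0.179). HSD17B7, a 3-ketosteroid reductase of the demethylation steps, was at 53.8, 55.4 and 53.4 CPM in NC and at 62.3, 61.5 and 60.8 CPM in ORF-Flag. The libraries of each group lay close together and the groups did not overlap. Its log2 fold change was 0.18 (edgeR, adjusted p = 0.0168, standard error 0.044), and the call was lost without ORF-Flag replicate 1, 2 or 3 (edgeR adjusted p = 0.0884, 0.0667 and 0.0618). In the longest transcript of HSD17B7, 26.8% of all 31-base stretches also occur in other genes, HSD17B7P2 among them, so its counts may include reads of those genes.

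The other 9 of the 12 were not called and ran in both directions, 5 above 0 and 4 below, where DHCR7 moved from above to below with library sizes in place of TMM factors, without NC replicate 2 or 3, and when ORF-Flag replicate 1 or 2 was left out. CYP51A1, the lanosterol demethylase, had the highest of these log2 fold changes at 0.17 (edgeR adjusted p = 0.137), but its level is uncertain, since 89.9% of its 31-base stretches are shared with other genes and a gene on the same strand covers 2943 bases of its exons. Below 0 were EBP, the sterol isomerase, at -0.098, TM7SF2 and LBR, both sterol reductases, at -0.095 and -0.081, and LSS, the lanosterol synthase, at -0.053. EBP, TM7SF2 and LBR differed by less than their standard errors of 0.039 to 0.054, and which was lowest changed with the library left out and with the GC and length trends removed. Over the 15 alternatives EBP lay between -0.15 and -0.059, TM7SF2 between -0.14 and -0.038, LBR between -0.11 and -0.052, and LSS between -0.088 and -0.011. SQLE, squalene epoxidase, was at 0.050, NSDHL, a sterol dehydrogenase, at 0.033 and FDFT1, squalene synthase, at 0.020. Without ORF-Flag replicate 2 these 3 were at 0.020, 0.0048 and 0.0071, and over the 15 alternatives they lay at 0.020 to 0.070, 0.0048 to 0.070 and 0.0044 to 0.041. DHCR7, the last reductase of one branch, was at 0.0048. Over the 19 sterol synthesis genes together, 15 had a log2 fold change above 0, or 13 with library sizes in place of TMM factors and 12 without NC replicate 3. Of the 19, 4 were called higher, and 2 without ORF-Flag replicate 2.

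Of the 5 regulators, 4 were tested, and SCAP alone was called. SREBF1, which encodes the SREBP most tied to fatty acid synthesis, was at 66.6, 60.4 and 55.5 CPM in NC and at 63.8, 60.3 and 59.3 CPM in ORF-Flag. SREBF2, which encodes the SREBP most tied to cholesterol synthesis, was at 244.6, 222 and 217 CPM in NC and at 229.9, 226 and 227 CPM in ORF-Flag. The groups overlapped for both, with NC replicate 1 highest of the 6 libraries. The log2 fold changes were 0.014 (edgeR, adjusted p = 0.930, standard error 0.055) for SREBF1 and 0.00050 (edgeR, adjusted p = 0.996, standard error 0.039) for SREBF2. Both directions turned with the choice of library left out, and that of SREBF2 also with the scaling.

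SCAP was at 87.2, 82.2 and 78.5 CPM in NC and at 74.2, 73.3 and 74.9 CPM in ORF-Flag. The ORF-Flag libraries lay within a narrow band below all NC libraries, of which replicate 1 was highest, as it was for SREBF1 and SREBF2. SCAP had a log2 fold change of -0.15 (edgeR, adjusted p = 0.0440, standard error 0.044). Without NC replicate 1 it was -0.11 (edgeR adjusted p = 0.129), and its adjusted p was also above 0.05 without NC replicate 2 (0.118) and without ORF-Flag replicate 1, 2 or 3 (0.136, 0.147 and 0.128). With trends on GC content and on transcript length removed from each library, it was -0.092 (edgeR adjusted p = 0.126), and it was also not called with DESeq2 (adjusted p = 0.0664) or limma-voom (adjusted p = 0.0566). INSIG2, which holds SCAP in the endoplasmic reticulum, was at 95.7, 103.9 and 101.9 CPM in NC and at 106.4, 103.6 and 108.6 CPM in ORF-Flag. The groups overlapped, and the log2 fold change was 0.079 (edgeR, adjusted p = 0.289, standard error 0.040), or 0.048 without NC replicate 1 and 0.040 with the GC and length trends removed. INSIG1, the other INSIG gene, is listed at 0 counts in all 6 libraries and was not tested. No exon of another gene model overlaps it, and the deposited table does not tell a gene without reads from a row left empty in the counting, so no level is given for INSIG1.

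**Figure D3:**
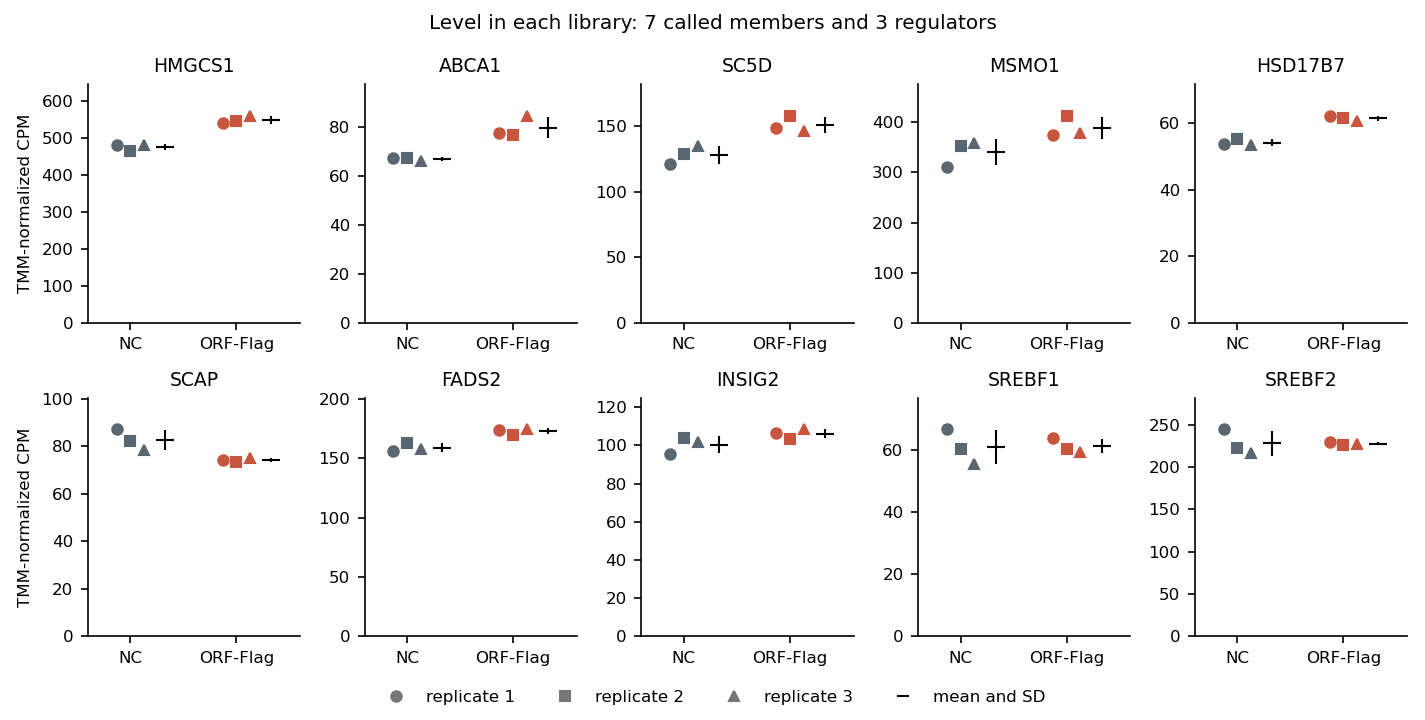
TMM-normalized CPM in each library for the 7 called members and 3 regulators, with symbols for replicates and a bar for the mean and SD of each group (n = 3). The groups separate for HMGCS1, ABCA1, SC5D, MSMO1, HSD17B7, FADS2 and SCAP and overlap for INSIG2, SREBF1 and SREBF2.

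Of the 5 genes of cholesterol uptake and trafficking, all were tested and 0 were called with edgeR, DESeq2, limma-trend or limma-voom. The unadjusted p in edgeR's test was below 0.05 for 2 of the 5, beside 2293 of the 12386 genes tested. NPC1, which moves cholesterol out of lysosomes, was at 113, 124 and 114 CPM in NC and at 125, 129.8 and 125 CPM in ORF-Flag. Its log2 fold change was 0.11 (edgeR, adjusted p = 0.120, standard error 0.040). NPC1L1, the sterol uptake transporter, lay at -0.11 on the log2 scale (edgeR, adjusted p = 0.185, standard error 0.044), with each ORF-Flag library below each NC library, and at -0.065 with the GC and length trends removed. NPC2, the lysosomal partner of NPC1, MYLIP, a ubiquitin ligase of lipoprotein receptors, and STARD4, a cytosolic sterol carrier, lay between 0.024 and 0.051, with NPC2 at 0.014 to 0.079 over the 15 alternatives. MYLIP and STARD4 turned below 0 without NC replicate 1, MYLIP also without NC replicate 2, and STARD4 also without ORF-Flag replicate 3 or with the GC and length trends removed.

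Of the 8 genes of fatty acid synthesis and desaturation, 1 was called higher and 0 lower, and 7 log2 fold changes were above 0, of which ACACA's turned below 0 without NC replicate 1 or with the GC and length trends removed. FADS2, the delta-6 desaturase of polyunsaturated fatty acids, was at 156, 163 and 158 CPM in NC and at 174, 170.1 and 175 CPM in ORF-Flag. The groups did not overlap. FADS2 differed by 0.12 on the log2 scale (edgeR, adjusted p = 0.0449, standard error 0.035), and the call was lost without NC replicate 1 or 2 (adjusted p = 0.0703 and 0.0741), without ORF-Flag replicate 1, 2 or 3 (adjusted p = 0.161, 0.0946 and 0.200) and with library sizes in place of TMM factors (adjusted p = 0.0560). FADS2 and FADS1 overlap by 490 exon bases on opposite strands. SCD, the stearoyl-CoA desaturase, was at 1493, 1503 and 1492 CPM in NC and at 1569, 1584 and 1610 CPM in ORF-Flag. Every ORF-Flag library was above every NC library, and the log2 fold change of 0.086 (edgeR, adjusted p = 0.113, standard error 0.030) was not called, though it was with DESeq2 (adjusted p = 0.0372). SCD shares 12.6% of its 31-base stretches with other genes. ELOVL6, a fatty acid elongase, ACSS2, which makes acetyl-CoA from acetate, and ACLY were also separated between the groups, at 0.11, 0.098 and 0.048, and were not called. ACSS2 was called where GC and length trends were removed (edgeR adjusted p = 0.0280). FASN, the fatty acid synthase, was the 1 gene of the 8 below 0, at 1142, 1073 and 963 CPM in NC and at 1007, 1014 and 1037 CPM in ORF-Flag. The NC libraries spread across the ORF-Flag range, and the log2 fold change was -0.055 (edgeR, adjusted p = 0.541, standard error 0.042). It was -0.12 and called without NC replicate 3 (edgeR adjusted p = 0.0170), 0.0022 without NC replicate 1, and 0.013 with the GC and length trends removed. ACACA, the acetyl-CoA carboxylase, was at 0.016, and FADS1, the delta-5 desaturase, at 0.043, which was 0.024 without NC replicate 3 and 0.027 without ORF-Flag replicate 2.

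Of the 4 genes of the LXR branch, 3 were tested, 1 was called higher and 0 lower. ABCA1, the cholesterol exporter, was at 67.3, 67.5 and 66.1 CPM in NC and at 77.5, 76.9 and 84.7 CPM in ORF-Flag. ORF-Flag replicate 3 was highest, and all 3 were above the NC libraries, which lay close together. Its level was 19.0% higher in ORF-Flag, at a log2 fold change of 0.25 (edgeR, adjusted p = 0.00120, standard error 0.045). NR1H3, the gene of LXR alpha, differed by 0.12 on the log2 scale (edgeR, adjusted p = 0.366, standard error 0.066). NR1H2, the gene of LXR beta, differed by -0.11 (edgeR, adjusted p = 0.376, standard error 0.063), or -0.062 with the GC and length trends removed. Each ORF-Flag library was below each NC library for NR1H2, and the groups overlapped for NR1H3. ABCG1, another sterol exporter, had 1 count in NC replicate 1 and 0 in the other 5 libraries and was not tested.

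For each role, the log2 CPM of each gene was centred on its mean over the 6 libraries and averaged. The mevalonate steps averaged -0.038, -0.031 and -0.042 in NC and 0.034, 0.053 and 0.025 in ORF-Flag, without overlap. For the squalene and sterol steps the NC libraries lay at -0.023 each, whereas ORF-Flag replicates 1 and 2 lay at 0.042 and 0.045 and ORF-Flag replicate 3 at -0.019, close to the NC libraries. For fatty acid synthesis and desaturation they were -0.025, -0.016 and -0.048 in NC and 0.016, 0.040 and 0.034 in ORF-Flag. The 3 roles of synthesis thus had their ORF-Flag libraries above the NC libraries, by different margins and with 1 library of the second close to NC. The regulators spread most within NC, from 0.070 in replicate 1 to -0.054 in replicate 3, and ORF-Flag lay inside that range. The mean of the uptake and trafficking genes overlapped between the groups. That of the 3 LXR genes did not, at -0.068, -0.0033 and -0.057 in NC and 0.053, 0.017 and 0.058 in ORF-Flag. Singly, ABCA1 was higher in each ORF-Flag library, NR1H2 was lower in each, and NR1H3 overlapped.

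**Figure D4:**
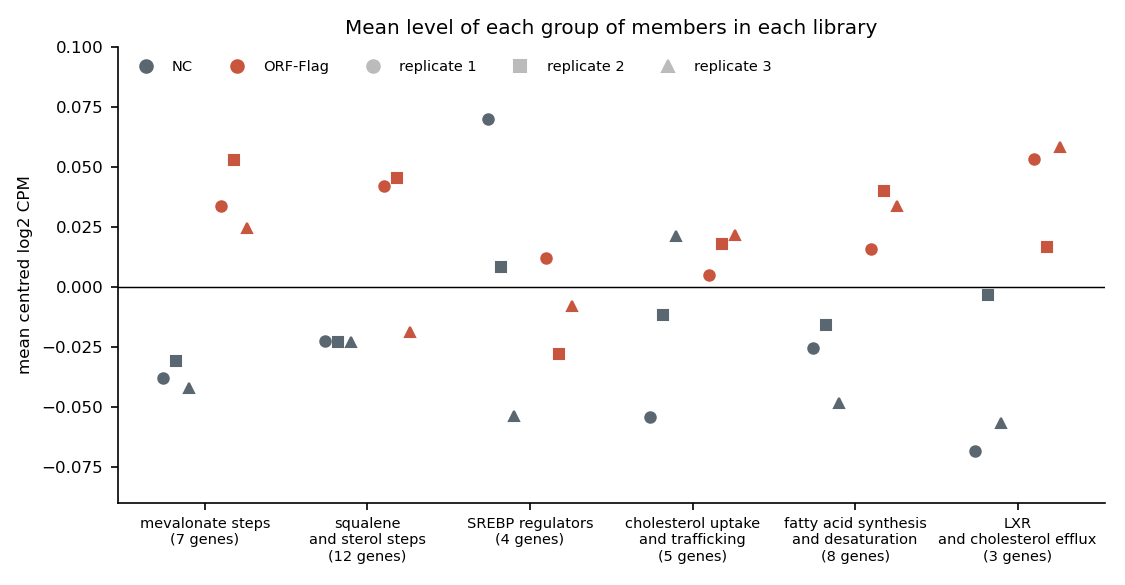
Mean centred log2 CPM of the tested members of each role in each library, coloured by group with a symbol for each replicate. ORF-Flag replicate 3 lies at -0.019 for the squalene and sterol steps, beside 0.042 and 0.045 in the other ORF-Flag libraries.

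HMGCS1, ABCA1 and SC5D were called in each of the 6 fits that left out 1 library. Their log2 fold changes lay between 0.19 and 0.22 for HMGCS1, 0.21 and 0.28 for ABCA1, and 0.19 and 0.27 for SC5D, with the highest edgeR adjusted p at 0.00681, 0.0272 and 0.0153. MSMO1 was called in 5 of these fits, HSD17B7 in 3, and SCAP and FADS2 in 1 each, that without NC replicate 3. All 7 kept their direction in these fits.

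**Figure D5:**
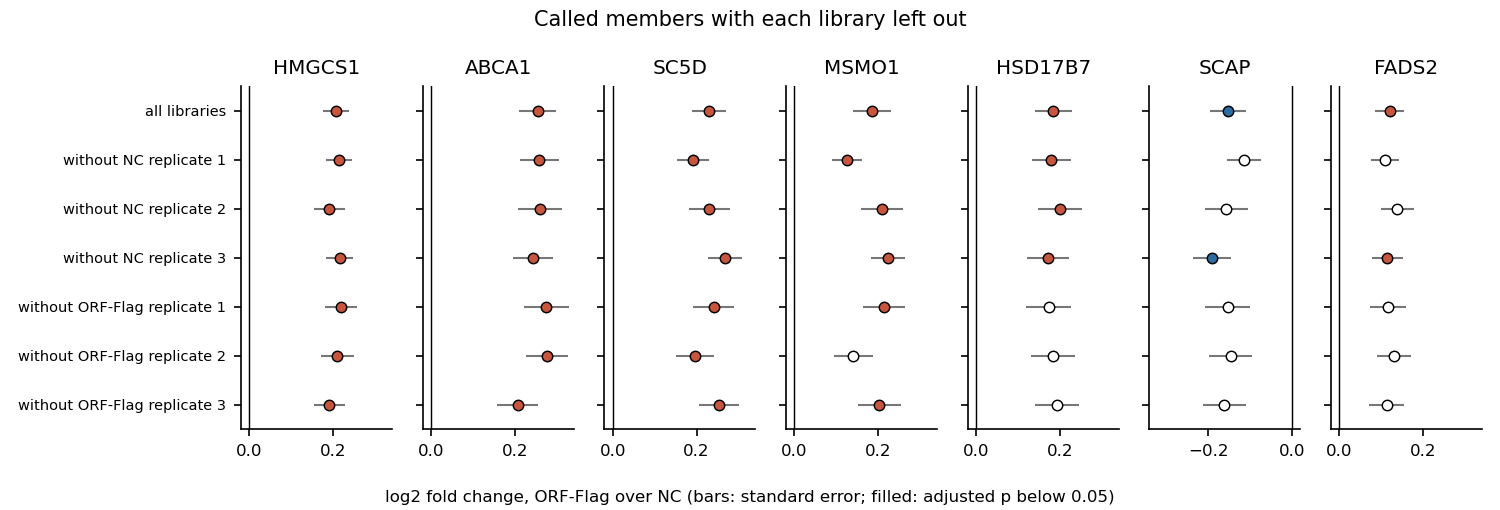
Log2 fold change with its standard error for the 7 called members in the fit of all libraries and with each library left out, filled where the adjusted p was below 0.05. HMGCS1, ABCA1 and SC5D are filled throughout, and SCAP and FADS2 only with all libraries or without NC replicate 3.

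Other genes of lipid metabolism, listed by role, gave a wider view of the pathway. Of 74 genes in 5 lists, 70 were tested, 2 were called higher and 3 lower, where 2.47% and 1.98% of all genes tested were called. The median log2 fold change was 0.012, beside -0.0012 over all genes tested. Of 12 genes of SREBP processing and sterol-regulated degradation, 1 was called. TMEM97, a sterol-responsive membrane protein, was higher at 0.16 (edgeR, adjusted p = 0.0278, standard error 0.042), with an adjusted p above 0.05 without NC replicate 2 (0.143) and without ORF-Flag replicate 1, 2 or 3 (0.0797, 0.0929 and 0.141). Of 10 genes of the isoprenoid branch, which uses the same mevalonate for other products, 0 were called with edgeR, DESeq2 or limma-voom. With limma-trend 1 was called, FNTA (adjusted p = 0.0496), named after its value was seen. FNTA was also called in edgeR's test without the low-count filter, with the replicate block, and without NC replicate 3 (adjusted p = 0.0410, 0.0464 and 0.0289). At an unadjusted p below 0.05 in edgeR's test were 3 of the 10, beside 2293 of the 12386 genes tested. Of 18 tested genes of other fatty acid and acylglycerol synthesis, ACSL3, an acyl-CoA synthetase, was higher at 0.12 (edgeR, adjusted p = 0.0408, standard error 0.032). Its adjusted p was above 0.05 without NC replicate 1 or 2 (0.0838 and 0.124), without ORF-Flag replicate 1, 2 or 3 (0.107, 0.184 and 0.130), and with the GC and length trends removed (0.0572). DGAT1, which makes triacylglycerol, was lower at -0.32 (edgeR, adjusted p = 0.00513, standard error 0.065). It was called in each of the 6 fits that left out 1 library, at -0.21 to -0.38, with -0.21 without NC replicate 1 (adjusted p = 0.0181) and the highest adjusted p, 0.0374, without ORF-Flag replicate 3. Of 16 tested genes of fatty acid oxidation and ketone synthesis, ACADVL, an acyl-CoA dehydrogenase, was lower at -0.15 (edgeR, adjusted p = 0.00871, standard error 0.032), lost without ORF-Flag replicate 3 (adjusted p = 0.0930). Of 14 genes of sterol storage, lysosome and other LXR targets, LRP1, a lipoprotein receptor, was lower at -0.16 (edgeR, adjusted p = 0.00625, standard error 0.033), lost without NC replicate 2 (adjusted p = 0.0606).

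Markers were compared in the same libraries. Of 10 hepatocyte-lineage genes, all were tested and 3 were called higher, and ALB was the most abundant. The summed level of the list was 10118, 10640.5 and 10765 CPM in NC and 11350.5, 11091 and 10953 CPM in ORF-Flag. SERPINA3, HP and FGB, with log2 fold changes of 0.65, 0.47 and 0.14, were those called higher, and the adjusted p of FGB, 0.0232 in edgeR's test, was above 0.05 without NC replicate 1 or 2 (0.0624 and 0.0927) and without ORF-Flag replicate 1, 2 or 3 (0.117, 0.0814 and 0.0646). Of 10 genes of other cell types, 5 were tested, and PTPRC, the leukocyte marker, was at 0 in all libraries. CDH5, COL1A1, COL1A2 and COL3A1 had at most 0.111 CPM in any library and were not tested. The most abundant of the list was KRT19, a keratin, with a log2 fold change of 0.21 (edgeR adjusted p = 0.000636). The other 4 tested were not called. PECAM1, an endothelial and leukocyte marker, was at 4.45, 3.84 and 4.78 CPM in NC and at 6.03, 5.29 and 5.78 CPM in ORF-Flag. Its groups did not overlap, and its log2 fold change was 0.39 (edgeR, adjusted p = 0.0958, standard error 0.13). ACTA2, an actin of smooth muscle, was at 70.5, 70.1 and 62.8 CPM in NC and at 71.3, 71.7 and 71.0 CPM in ORF-Flag. The groups again did not overlap, at a log2 fold change of 0.077 (edgeR, adjusted p = 0.409, standard error 0.047), or 0.021 without NC replicate 3. CD68, a macrophage marker, had 37.3 to 42.7 CPM over the 6 libraries and a log2 fold change of -0.028, which was 0.030 without NC replicate 1. KRT7, a further keratin, had at most 0.574 CPM. Its log2 fold change was 0.37 (standard error 0.50), and lay between 0.10 and 0.75 over 13 alternatives. Together the genes of this list summed to 647, 602 and 584 CPM in NC and 694, 688 and 701 CPM in ORF-Flag. The part of these shifts in the differences among the members was not tested.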

How the data were processed

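RNA-Seq libraries of HepG2 cells (3 NC, 3 ORF-Flag) were analysed from the table of raw counts per gene that the authors deposited. RNA was extracted with TRIzol and libraries were made with a VAHTS kit. The submitters' processing notes name GRCh38, cutadapt 1.11, HISAT2 2.1.0, featureCounts 1.6.0 and edgeR, without their roles. The annotation, the strand setting and the treatment of shared reads are not given in the sources used here. Of 20422 identifiers, 20421 were matched to a symbol.

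Counts were used as deposited, with edgeR 4.0.16 in R 4.3.3 (filterByExpr, TMM, quasi-likelihood test, Benjamini-Hochberg adjustment), and standard errors were derived from the F statistic. Total counts ranged from 17494668 to 30088457, which puts 3 counts at 0.0997 to 0.171 CPM. Pairs of libraries within a group differed by 2.39 to 5.23 in chi-square per degree of freedom, so none looked like a duplicate. Gene models were those of GENCODE v29 on GRCh38, and promoters those of RefSeq.

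Values in every library were given for called members and for SREBF1, SREBF2, SCAP, INSIG1 and INSIG2, and called genes of other lists by their log2 fold change, up to 3 a list. Other members given in every library, NPC1, SCD and FASN, were chosen after their values were seen. The members and lists were chosen with earlier results of these data known. The alternatives were DESeq2 1.42.0, limma-trend and limma-voom (limma 3.58.1), library sizes without TMM, RLE factors, no filter, at least 10 counts in every library, the replicate block, removal of GC and length trends, and each library left out. The tools were tested on simulated data. Figures were drawn with matplotlib 3.10.9.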

Additional observations from a re-analysis of the deposited data

How the results depend on the processing

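Counts of calls, the median of the members and the log2 fold changes of tested members were recomputed under 15 alternatives. Of these, 6 left out 1 library. The same was done for the log2 fold changes of called genes in other lists and tested markers of other cell types. KRT7 was the exception, with 13 alternatives, of which 5 left out 1 library. Levels, role means, marker sums, counts of groups without overlap and promoter shares were not recomputed. The 6 members called higher numbered between 5 and 8 under the other 9 alternatives, where genes called higher over all genes numbered 234 to 421 (421 where 8 members were called), and between 3 and 7 with 1 library left out. The 1 member called lower became 0 with DESeq2, limma-voom or the GC and length trends removed, and between 0 and 2 with 1 library left out. The 551 genes called over all genes became between 199 and 1058 with 1 library left out, with fewer samples in those fits. The median log2 fold change of the members, 0.048, lay between 0.030 and 0.063 with 1 library left out. The cause of these shifts was not tested.

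With the replicate number as a block, 731 genes were called, 550 of them among the 551, with 6 members higher and 1 lower. Same-numbered libraries of the groups had small correlations of 0.067, 0.027 and 0.045 in their deviations from the group means. The comparison above did not use the numbers as pairs, and correlations this small cannot settle whether the samples were paired. ORF-Flag replicate 2 correlated best with NC replicate 3 (0.030), and every other library correlated best with its own number.

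Of 585 values of single members under alternatives, 531 kept their direction and side of the threshold, 19 lost a call, 5 gained one and 30 turned direction, all of these in members that were called neither in the comparison of all libraries nor under that alternative. PMVK turned to -6.1e-05 with DESeq2, -0.0035 with library sizes without TMM factors and -0.0011 with no filter. SREBF2 turned to -0.00080, -0.0045 and -0.0015 under the same 3 and to -0.00029 with RLE factors. DHCR7 turned to -0.00017 without TMM factors. With the GC and length trends removed, STARD4 turned to -0.021, ACACA to -0.0078 and FASN to 0.013. With 1 library left out, the ranges were -0.044 to 0.059 for PMVK, -0.00070 to 0.076 for MVD, -0.023 to 0.045 for DHCR7, -0.051 to 0.080 for SREBF1, -0.035 to 0.053 for SREBF2, -0.0090 to 0.18 for MYLIP, -0.010 to 0.053 for STARD4, -0.018 to 0.043 for ACACA and -0.12 to 0.0022 for FASN, and for the marker CD68 -0.065 to 0.030. The cause was not tested. With 17494668 to 30088457 counts per library, differences in members of few counts, such as MYLIP, were measured least precisely.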
